A study of Homo sapiens and Mus musculus with 13 samples.

Results

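The genes described here were 9 growth factors that act between cells of nerve, connective tissue and vessel: the fibroblast growth factors FGF1, FGF2 and FGF5, the neurotrophins NTF3 and BDNF, the vascular endothelial growth factors VEGFA and VEGFC, and the platelet-derived growth factor chains PDGFA and PDGFB. They were chosen by name from the 24523 gene symbols of the human expression table, where all 9 were present, and they were followed through its 7 libraries. Of the 9 members, 8 had a mean of at least 0.5 FPKM (fragments per kilobase of transcript, scaled to the mapped fragments of a library) and were compared along with 12636 genes in all; FGF2 did not reach that level and is given by its values only.

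These proteins are ligands of receptor tyrosine kinases. Fibroblast growth factors bind FGFR1 to FGFR4 together with heparan sulfate, BDNF and NTF3 bind TrkB and TrkC, the VEGF proteins bind KDR and its relatives on vessel and lymphatic endothelium, and dimers of the PDGF chains bind PDGFRA and PDGFRB, mostly on stromal cells. Most of these receptors feed into the RAS-ERK cascade, whose immediate feedback inhibitors include the DUSP phosphatases and the Sprouty proteins, while VEGFA is the best known target of the oxygen-sensing factor HIF1. In breast tumors such ligands are known chiefly for what they do to vessels, fibroblasts and nerves around the cancer cells.

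The study asked how the ubiquitin ligase TRIM11 and the histone H3K4 demethylase KDM5C act on gene expression in breast cancer. All 7 human libraries came from MDA-MB-231, a mesenchymal-like, triple-negative breast cancer line, that had received lentiviral Cas9 with a guide RNA and puromycin selection. Control carried a GFP guide (1 library), TRIM11-KD1 and TRIM11-KD2 carried TRIM11 guide 1 or 2, KDM5C-KD1 and KDM5C-KD2 carried KDM5C guide 1 or 2, and the double knockdowns DKD1 and DKD2 joined TRIM11 guide 1 or 2, respectively, to KDM5C guide 2. Where a pair of values follows for a knockdown, that of line 1 comes first. The 2 lines of a knockdown therefore differ in guide as well as in culture, KDM5C guide 2 is present in 3 libraries, and whether a line was a clone or a pool is not given in the sources used here. A second table held 6 mammary tumors from 3-month-old female MMTV-PyVT mice, in which the mammary tumor virus promoter drives the polyoma middle T antigen in mammary epithelium, on a hybrid of C57BL/6N and FVB/N: 3 tumors were Trim11+/+ and 3 were Trim11+/-, with exons 2 to 6 deleted by CRISPR/Cas9 in the line.

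The libraries carried the marks of their line, with VIM between 1038 and 1309 FPKM, AXL between 405.5 and 538.5 FPKM, ESR1 at 0.0234 FPKM or less and PGR at 0. KDM5C mRNA was at 30.3 FPKM in Control, 20.6 and 21.4 in KDM5C-KD, and 18.8 and 22.7 in DKD. TRIM11 mRNA was at 12.6 FPKM in Control, 13.4 and 10.6 in TRIM11-KD, and 16.1 and 9.38 in DKD. TRIM11 mRNA was thus not below Control in TRIM11-KD1 nor in DKD1, as these are labelled. The study checked its CRISPR lines by western blot, a measure of protein that these RNA values do not hold. Every direction drawn from the TRIM11 labels below therefore rests on the label and on that check, not on TRIM11 mRNA. The summed FPKM per library lay between 493543 and 513462. The number of reads behind each human value is not known.

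The promoter sequences of 3 members are shown because these members lay at least 1.5-fold from Control in both lines of some knockdown and have a promoter entry. FGF5 was below Control in every knockdown, and FGF1 and NTF3 were above it in KDM5C-KD. VEGFA and PDGFB have no entry in the promoter table. Each line gives the 250 bases before a RefSeq transcription start in the direction of the gene, with matches to the GC box (GGGCGG on the plus or minus strand) in capitals. The sequences come from RefSeq (GRCh38.p14), and their positions are those of their single exact match in GRCh37 (hg19), which for FGF5 is chr4:81187492-81187741 (plus strand), for NTF3 chr12:5541024-5541273 (plus strand) and for FGF1 chr5:142077636-142077885 (minus strand).
FGF5: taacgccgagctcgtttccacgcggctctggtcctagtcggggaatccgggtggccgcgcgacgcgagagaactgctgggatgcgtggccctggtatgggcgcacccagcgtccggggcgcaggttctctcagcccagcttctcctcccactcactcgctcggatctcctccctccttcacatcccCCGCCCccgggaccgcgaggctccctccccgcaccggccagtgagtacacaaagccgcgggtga
NTF3: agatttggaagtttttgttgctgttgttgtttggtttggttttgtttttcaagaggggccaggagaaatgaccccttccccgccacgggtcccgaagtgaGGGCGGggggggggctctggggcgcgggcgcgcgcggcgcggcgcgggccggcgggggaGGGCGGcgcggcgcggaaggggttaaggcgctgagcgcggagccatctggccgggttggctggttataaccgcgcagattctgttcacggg
FGF1: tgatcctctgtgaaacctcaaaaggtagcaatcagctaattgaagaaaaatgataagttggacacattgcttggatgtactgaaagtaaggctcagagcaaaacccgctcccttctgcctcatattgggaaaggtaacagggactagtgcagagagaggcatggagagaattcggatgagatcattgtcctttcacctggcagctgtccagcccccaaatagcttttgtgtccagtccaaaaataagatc

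The FGF5 and NTF3 windows were rich in CpG, with 27 and 28 CpG dinucleotides, and that of FGF1 was poor, with 2, against a median of 11 over 35116 RefSeq promoter windows of that length. The GC box occurred once in the FGF5 window, 2 times in the NTF3 window and not in the FGF1 window, and 42.6% of all windows held it. Of the other motifs searched on both strands, the 3 windows held a single match, to the box CCAAT in the FGF1 window, which 32% of all windows hold. They held no E-box CACGTG (in 6.34% of all windows). They held none of the hypoxia core ACGTG, found in 18.5% of all windows, a share that counts every E-box of that form too. The TATA box TATAAA, in 10.7% of all windows, was not found. The AP-1 motif TGANTCA, in 6.57%, was not found either. FGF1 has 4 RefSeq entries of this kind and FGF5 and NTF3 have 2 each. The windows shown are the first entries, and the counts differ by start. The other FGF5 window held 3 CpG, 2 TATAAA and no GC box, and the other NTF3 window held 9 CpG, 1 GC box and 1 CCAAT. Among the other FGF1 windows, entries 3 and 4 each held 1 GC box, and entry 4 also held 1 ACGTG and 1 TGANTCA. The gene-level values do not say which start was used. Of the 9 members, 7 matched the promoter table, with 19 entries.

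The members spanned a wide range of expression, and the highest of them kept nearly the same order in every library. VEGFA was the highest of the 9 in all 7 libraries, at 37.3 to 81.3 FPKM, which placed it between percentile 80.0 and percentile 91.7 of the genes tested. VEGFC (13.1 to 22.7 FPKM) and BDNF (10.2 to 14.8 FPKM) followed, and they changed places in TRIM11-KD2 and DKD2. FGF5 (3.15 to 11.2 FPKM), PDGFA (3.34 to 6.87 FPKM) and FGF1 (2.81 to 8.26 FPKM) overlapped one another. PDGFB (0.2 to 3.2 FPKM) and NTF3 (0.163 to 1.23 FPKM) were low, and FGF2 did not exceed 0.0995 FPKM. The highest library exceeded the lowest 16.0-fold for PDGFB, 7.54-fold for NTF3, 3.57-fold for FGF5, 2.94-fold for FGF1, 2.18-fold for VEGFA and 2.06-fold for PDGFA, but only 1.73-fold for VEGFC and 1.44-fold for BDNF.

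**Figure D1:**
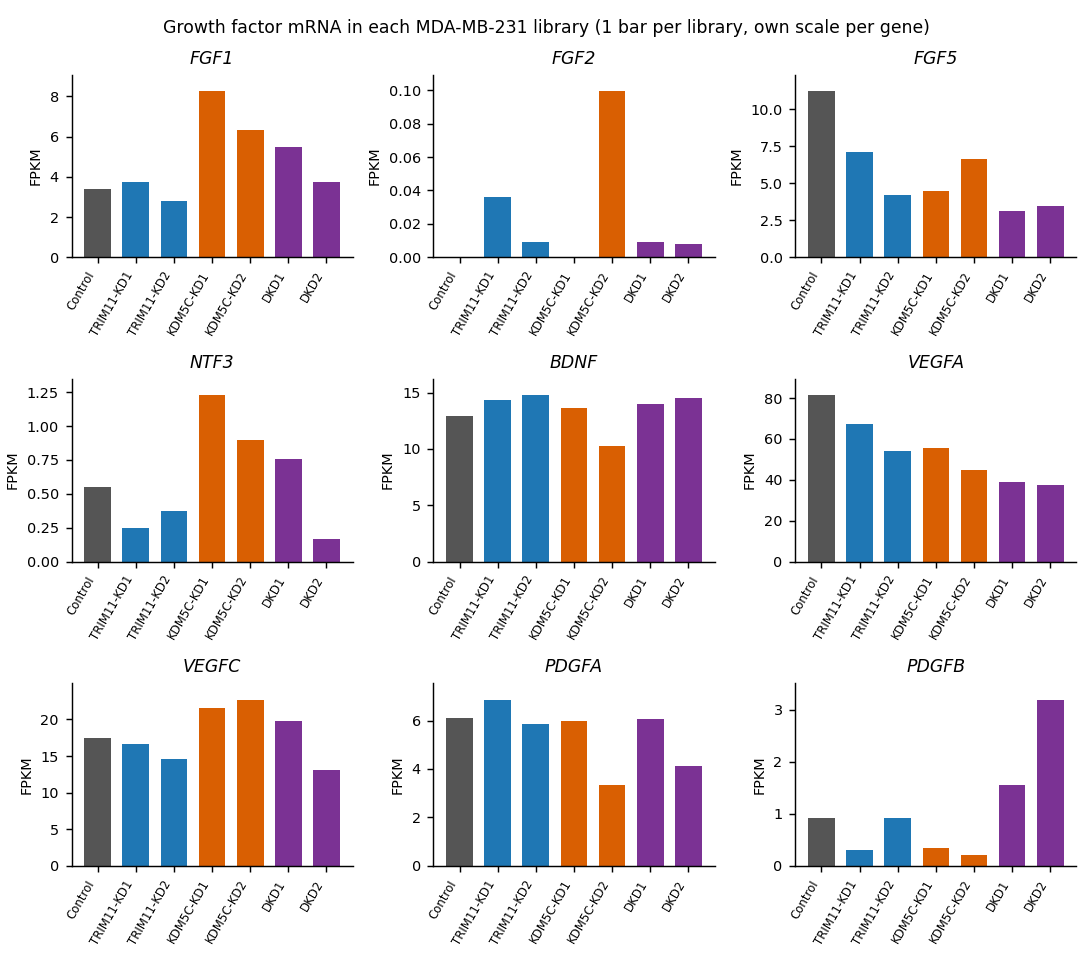
FPKM (vertical axis, own scale per gene) of the 9 members, with 1 bar for each of the 7 MDA-MB-231 libraries and colors for Control, TRIM11-KD, KDM5C-KD and DKD. FGF5 and VEGFA are highest in Control, FGF1 and NTF3 are highest in KDM5C-KD1 and KDM5C-KD2, and PDGFB is highest in DKD1 and DKD2.

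FGF5, a secreted fibroblast growth factor known for ending the growth phase of hair follicles and expressed in some cancers, was below Control in every knockdown library. The gene lies at chr4:81187793-81257834 on the plus strand of hg19, and CFAP299 shares 136 of its 5958 exonic bases on the same strand in the GENCODE annotation. Its level was 11.2 FPKM in Control, 7.08 and 4.21 in TRIM11-KD, 4.46 and 6.62 in KDM5C-KD, and 3.15 and 3.47 in DKD. The ratios to Control were 0.631 and 0.375 in the libraries labelled TRIM11-KD, 0.397 and 0.59 in KDM5C-KD, and 0.28 and 0.309 in DKD. FGF5 was the only member at least 1.5-fold below Control in all 6, as were 0.91% of all genes tested. As all 6 ratios share the single Control library, they are not independent of each other, and the 1.5-fold rule is not a test.

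VEGFA, the main inducer of vessel growth and permeability, lies at chr6:43737921-43754224 on the plus strand, and an antisense long noncoding RNA shares 188 of its 14431 exonic bases. Its level was 81.3 FPKM in Control, 67.2 and 54.1 in TRIM11-KD, 55.7 and 44.9 in KDM5C-KD, and 38.8 and 37.3 in DKD. Here too every knockdown library was below Control, and the DKD libraries were the lowest, at ratios of 0.477 and 0.458. VEGFA and FGF5 were the 2 of 8 members below Control in all 6 knockdown libraries regardless of size, as were 16.1% of all genes. The VEGFA ratios in KDM5C-KD were 0.685 and 0.552, so that line 1 fell short of the 1.5-fold limit.

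FGF1, an acidic fibroblast growth factor that binds all FGF receptors and leaves the cell without a signal peptide, was highest in KDM5C-KD. It lies at chr5:141971743-142077635 on the minus strand. FGF1 was at 3.39 FPKM in Control, 3.76 and 2.81 in TRIM11-KD, 8.26 and 6.3 in KDM5C-KD, and 5.46 and 3.73 in DKD. KDM5C-KD1 and KDM5C-KD2 were above each of the other 5 libraries, and DKD2 was level with TRIM11-KD1. The ratios to Control were 2.44 and 1.86 in KDM5C-KD, 1.61 and 1.1 in DKD, and 1.11 and 0.829 in TRIM11-KD.

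NTF3 encodes neurotrophin-3, which supports proprioceptive and sympathetic neurons, and lies at chr12:5541274-5630702 on the plus strand. Its level was 0.549 FPKM in Control, 0.244 and 0.373 in TRIM11-KD, 1.23 and 0.9 in KDM5C-KD, and 0.758 and 0.163 in DKD. As with FGF1, the KDM5C-KD libraries were the highest, at 2.24 and 1.64 times Control, and both TRIM11-KD libraries were below Control, at ratios of 0.445 and 0.68. The DKD libraries lay on either side of Control. NTF3 was low in every library, between percentile 0.586 and percentile 9.70 of the genes tested. Its mean of 0.602 FPKM passed the limit of 0.5 FPKM only through the KDM5C-KD libraries. The calls of NTF3 in KDM5C-KD given below are therefore descriptions.

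PDGFB, the B chain that recruits pericytes to new vessels, lies at chr22:39619364-39640987 on the minus strand and varied the most. PDGFB was at 0.926 FPKM in Control, 0.305 and 0.925 in TRIM11-KD, 0.35 and 0.2 in KDM5C-KD, and 1.55 and 3.2 in DKD. The KDM5C-KD libraries were both below Control, at ratios of 0.377 and 0.216, and the DKD libraries were both above it, at 1.68 and 3.45. TRIM11-KD2 was at 0.998 of Control and TRIM11-KD1 at 0.329 of it.

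BDNF, the neurotrophin that binds TrkB, lies at chr11:27676440-27743605 on the minus strand and was the steadiest member. Its level was 12.9 FPKM in Control, 14.4 and 14.8 in TRIM11-KD, 13.6 and 10.2 in KDM5C-KD, and 14.0 and 14.5 in DKD. KDM5C-KD2 was the single library below Control. The antisense gene BDNF-AS shares 988 of the 7740 exonic bases of BDNF, and in these libraries without strand its reads cannot be told apart from those of BDNF, but it was listed at 0.173 to 0.62 FPKM.

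VEGFC, the lymphatic growth factor, lies at chr4:177604689-177714076 on the minus strand. Its level was 17.5 FPKM in Control, 16.7 and 14.6 in TRIM11-KD, 21.6 and 22.7 in KDM5C-KD, and 19.7 and 13.1 in DKD. The 2 KDM5C-KD libraries were again the highest, but only 1.24 and 1.3 times Control. PDGFA, the A chain, lies at chr7:536895-559933 on the minus strand and was at 6.09 FPKM in Control, 6.87 and 5.84 in TRIM11-KD, 5.99 and 3.34 in KDM5C-KD, and 6.05 and 4.13 in DKD. KDM5C-KD2 and DKD2 were its lowest libraries and the other 5 lay close together.

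FGF2, the basic fibroblast growth factor and a classical angiogenic factor, lies at chr4:123747837-123819391 on the plus strand and was listed at or near 0 throughout. It was listed at 0 FPKM in Control and KDM5C-KD1, 0.0362 and 0.00937 in TRIM11-KD, 0.0995 in KDM5C-KD2, and 0.0094 and 0.00806 in DKD. NUDT6, a nudix hydrolase gene on the opposite strand, shares 804 of the 6801 exonic bases of FGF2 and was at 6.13 FPKM in Control and at 5.45 to 10.98 FPKM in the knockdown libraries. The libraries were not directional, so reads of the shared bases cannot be told apart between FGF2 and NUDT6, and no fold change is given for FGF2.

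Against Control, a member was called higher or lower when line 1 and line 2 each lay at least 1.5-fold above or below it, a rule of size with no test, because Control was 1 library. In the libraries labelled TRIM11-KD, no member was higher (3.25% of all genes tested were) and FGF5 was lower (2.58% of all genes). In KDM5C-KD, FGF1 and NTF3 were higher (2 of 8 members, beside 5.22% of all genes), and FGF5 and PDGFB were lower (2 of 8, beside 3.97%). NTF3 was among the members compared only through its KDM5C-KD values. In DKD, PDGFB was higher (1 of 8, beside 5.71%), and FGF5 and VEGFA were lower (2 of 8, beside 4.87%). BDNF, VEGFC and PDGFA were called in none of the 3 knockdowns. The median log2 difference of the 8 members from Control was -0.20 in TRIM11-KD, -0.24 in KDM5C-KD and -0.11 in DKD, on the log2(FPKM + 1) scale and averaged over the lines, against -0.01 for all genes in each.

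**Figure D2:**
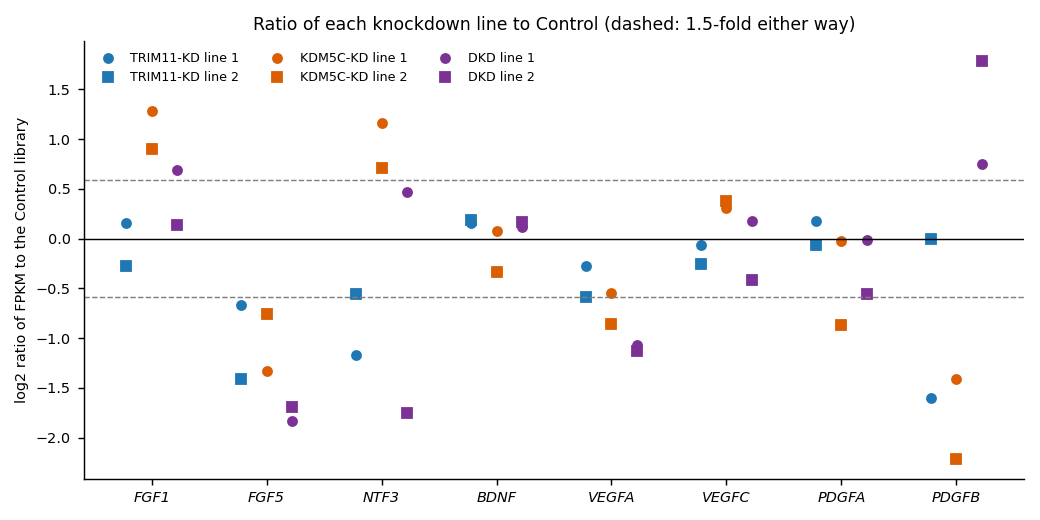
Log2 ratio of FPKM to the Control library (vertical axis) for 8 members, with circles for line 1 and squares for line 2 of each knockdown and dashed lines at 1.5-fold either way. All 6 points of FGF5 lie below the lower dashed line, and PDGFB lies below it in KDM5C-KD and above the upper line in DKD.

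The knockdowns were then compared with each other, where each side has 2 libraries. Here limma was fitted to log2(FPKM + 1) over the 6 knockdown libraries, and a gene was called when its mean FPKM differed at least 1.5-fold either way with an unadjusted p under 0.05, the limits that the study applied. FGF1 was higher in KDM5C-KD than in TRIM11-KD by 0.95 on the log2 scale (SE 0.23, unadjusted p = 0.0059, adjusted p = 0.494), and both KDM5C-KD libraries were above both TRIM11-KD libraries. NTF3 was higher in KDM5C-KD than in TRIM11-KD by 0.65 on this scale (SE 0.25, unadjusted p = 0.0415, adjusted p = 0.502), a 3.45-fold ratio of mean FPKM. As NTF3 reached the level for comparison only through its KDM5C-KD values, its call is a description. FGF1 and NTF3 were the 2 of 8 members called in that comparison, in which 5.37% of all genes were. Leaving out any library of either group ended the NTF3 call, with p between 0.0615 and 0.148.

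Between KDM5C-KD and DKD, which asks what a TRIM11 guide added to a KDM5C guide changed, 2 of 8 members were called, beside 6.74% of all genes. KDM5C-KD1 carries KDM5C guide 1 and both DKD lines carry guide 2, so a change of KDM5C guide is mixed in. Without KDM5C-KD1 both sides carry guide 2, with a single library left in KDM5C-KD. The log2 differences were then -1.45 for PDGFB, 0.40 for FGF1 and 0.82 for FGF5. PDGFB was lower in KDM5C-KD than in DKD, by 1.36 on the log2 scale (log2 difference -1.36, SE 0.31, unadjusted p = 0.00459, adjusted p = 0.379), with 0.35 and 0.2 FPKM against 1.55 and 3.2. FGF1 was above DKD in KDM5C-KD, by 0.57 (SE 0.23, unadjusted p = 0.046, adjusted p = 0.421). By limma, the FGF1 call was lost without DKD2 (unadjusted p = 0.232), without KDM5C-KD1 (unadjusted p = 0.208) and, through the shared estimate of spread, without either TRIM11-KD library (unadjusted p = 0.0596 and unadjusted p = 0.0586). Without DKD1, NTF3 and VEGFC were called as well. FGF5, 1.67-fold higher in KDM5C-KD with an unadjusted p = 0.0706, was called in FGF1's place without TRIM11-KD1 (unadjusted p = 0.0467), without TRIM11-KD2 (unadjusted p = 0.0453) or without KDM5C-KD1 (unadjusted p = 0.045), and it was also called when only the libraries of the groups compared were fitted (unadjusted p = 0.0474). The mean of VEGFA in KDM5C-KD was 1.32 times that in DKD, which did not pass the test (unadjusted p = 0.0503).

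Between DKD and TRIM11-KD, which asks what a KDM5C guide added to a TRIM11 guide changed, 2 of 8 members were called, beside 3.29% of all genes. VEGFA was lower in DKD, at a ratio of mean FPKM of 0.627 (log2 difference -0.65, SE 0.16, unadjusted p = 0.00614, adjusted p = 0.702), and PDGFB was higher, at a ratio of 3.86 (log2 difference 1.05, SE 0.31, unadjusted p = 0.0151, adjusted p = 0.702). Without the library labelled TRIM11-KD1 neither call held, as VEGFA fell short of the 1.5-fold limit and PDGFB had an unadjusted p = 0.086, and without DKD2 the PDGFB call was lost (unadjusted p = 0.0786). In none of these 3 comparisons did any gene reach an adjusted p under 0.05 with limma (0% of genes tested), whereas 2 members had an unadjusted p under 0.05 in each, beside 11.7% of all genes between KDM5C-KD and DKD, 9.82% between KDM5C-KD and TRIM11-KD and 7.03% between DKD and TRIM11-KD.

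The 4 groups also form a layout of both guides, in which 4 libraries carried a KDM5C guide and 4 a TRIM11 guide, and an additive fit over the 7 libraries gave the effect of each. With a KDM5C guide, VEGFA was lower by 0.67 on the log2 scale (log2 difference -0.67, SE 0.12, unadjusted p = 0.000621, adjusted p = 0.339), and of the 4 libraries with the guide only KDM5C-KD1 was above any library without it, at 55.7 FPKM against 54.1 in TRIM11-KD2. FGF5 was lower (log2 difference -0.72, SE 0.20, unadjusted p = 0.00776, adjusted p = 0.383) and FGF1 was higher (0.59, SE 0.19, unadjusted p = 0.0172, adjusted p = 0.395). These 3 of 8 members were called, beside 2.13% of all genes, and no member reached an adjusted p under 0.05 in limma, as 0.00791% of all genes did. With a TRIM11 guide, FGF5 was lower (log2 difference -0.72, SE 0.20, unadjusted p = 0.00828, adjusted p = 0.448), the only 1 of 8 members called, beside 3.02% of all genes, and none reached an adjusted p under 0.05 (0% of all genes). VEGFA differed with a TRIM11 guide by -0.40 (SE 0.12, unadjusted p = 0.00997, adjusted p = 0.448), short of the 1.5-fold limit.

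Without the single Control library, the calls of FGF1 with a KDM5C guide (unadjusted p = 0.152) and of FGF5 with either guide (-0.59, unadjusted p = 0.0672, and -0.58, unadjusted p = 0.0706) were lost, although the FGF5 differences stayed near their former size, VEGFA with a KDM5C guide remained at -0.65 (unadjusted p = 0.00614), and PDGFB was called higher with either guide, by 1.05 for KDM5C (unadjusted p = 0.0151) and 1.36 for TRIM11 (unadjusted p = 0.00459), which are then the same comparisons as those between the knockdowns above. The FGF1 call with a KDM5C guide was also lost without TRIM11-KD2 (unadjusted p = 0.0488, short of the fold), without KDM5C-KD1 (unadjusted p = 0.038, short of the fold) and without DKD1 (unadjusted p = 0.0522).

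The fit also gave a term for the interaction of the guides, in which the cells without either guide are the single Control library, where PDGFB was at 0.926 FPKM. The change of PDGFB with a KDM5C guide was larger by 1.65 on the log2 scale in cells with a TRIM11 guide than in cells without (interaction, SE 0.50, unadjusted p = 0.0156, adjusted p = 0.879). PDGFB was the only 1 of 8 members with an unadjusted p under 0.05 for the interaction, beside 5.49% of all genes. The estimate lay between 1.29 and 2.00 when each knockdown library was left out in turn. For VEGFA the interaction was 0.04 (SE 0.25), and for FGF5 it was 0.33 (SE 0.42).

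**Figure D3:**
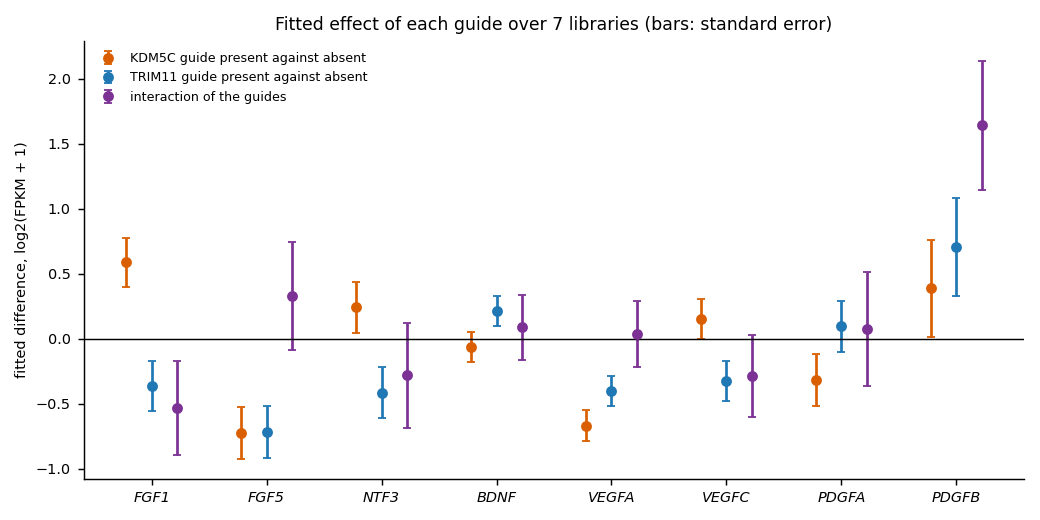
Fitted difference on the log2(FPKM + 1) scale (vertical axis, bars are standard errors) for 8 members with a KDM5C guide, with a TRIM11 guide, and for the interaction of both, over 7 libraries. VEGFA and FGF5 are below 0 for both guides, FGF1 is above 0 for the KDM5C guide, and PDGFB has an interaction of 1.65.

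Over the 7 libraries, some members followed one another. The Pearson correlation of log2(FPKM + 1) was 0.91 between NTF3 and VEGFC, 0.857 between FGF1 and NTF3, 0.836 between FGF5 and VEGFA and 0.832 between FGF1 and VEGFC, and it was -0.685 between VEGFC and PDGFB. These are descriptions over the same 7 libraries of 1 cell line, 3 of which share KDM5C guide 2. Among the genes with a mean of at least 5 FPKM, the gene most like FGF5 was RGL2 (0.985), the gene most like VEGFA was KCTD20 (0.987), the gene most like FGF1 was ME3 (0.983) and the gene most like BDNF was NUDCD1 (0.995). For VEGFC it was EMC7 (0.982), for PDGFA VAMP4 (0.991), for PDGFB NCAPG (0.979) and for NTF3 the joint row of MICAL1 and ZBTB24 (0.989). Each is the highest of 8791 or 8792 candidates over only 7 libraries. Whether a search of that many genes gives such values by itself was not tested.

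Of 26 other ligands of these families, 25 were in the table and 4 reached the level for comparison, among them VEGFB, PDGFC and PGF. VEGFB was at 33.5 to 58.5 FPKM and PDGFC at 28.1 to 41.3 FPKM, so that both were above VEGFC in every library on this per-length scale. PGF, the placental member of the VEGF family, was at 6.31 FPKM in Control, 2.82 and 2.91 in TRIM11-KD, 3.0 and 2.68 in KDM5C-KD, and 3.11 and 6.14 in DKD. PGF was the single gene of the list called against Control, lower in the libraries labelled TRIM11-KD and in KDM5C-KD and in neither direction in DKD.

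The receptors of the members were unevenly present in this line. Of 15 receptor genes, 8 reached the level for comparison, led by FGFRL1 (39.8 to 57.3 FPKM), the FGF receptor that lacks a kinase domain, and FGFR1 (24.8 to 34.5 FPKM). PDGFRB was at 5.7 to 10.6 FPKM, and PDGFRA did not exceed 0.0291 FPKM. The kinases that bind BDNF and NTF3 were low, with NTRK2 at 0.651 FPKM or less and NTRK3 at 0.045 FPKM or less, and KDR, the VEGFA receptor of endothelium, was at 0.149 to 0.99 FPKM. NGFR, the low-affinity neurotrophin receptor p75, was at 2.18 FPKM in Control, 0.798 and 1.03 in TRIM11-KD, 0.474 and 0.0226 in KDM5C-KD, and 0.996 and 2.5 in DKD. It was lower than Control in the libraries labelled TRIM11-KD and in KDM5C-KD, and it was lower in KDM5C-KD than in DKD (log2 difference -1.11, SE 0.33, unadjusted p = 0.0144, adjusted p = 0.383). No receptor was higher than Control in both lines of any knockdown, and 1 of 8, 3 of 8 and 2 of 8 were lower in TRIM11-KD, KDM5C-KD and DKD, beside 2.58%, 3.97% and 4.87% of all genes.

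Genes that hold, cut or sort these ligands lay on both sides of Control. Of 20 co-receptor, matrix and processing genes compared, 1 was higher and 2 were lower than Control in TRIM11-KD, 2 were higher and 4 lower in KDM5C-KD, and 2 were higher and 2 lower in DKD. The shares of all genes were 3.25% higher and 2.58% lower, 5.22% higher and 3.97% lower, and 5.71% higher and 4.87% lower, in that order. PLAT, tissue plasminogen activator, whose product plasmin can cleave the BDNF precursor, was at 176.1 FPKM in Control, 152.3 and 55.5 in TRIM11-KD, 62.3 and 15.4 in KDM5C-KD, and 87.8 and 48.4 in DKD. All 6 knockdown libraries were below Control. SORCS2, a sortilin-family partner of p75, was at 7.46 FPKM in Control and at 12.2 to 17.7 FPKM in the 6 knockdown libraries, all above Control. SORL1, a sorting receptor of the same family, was at 1.63 FPKM in Control, 0.801 and 1.03 in TRIM11-KD, 0.589 and 0.0607 in KDM5C-KD, and 2.15 and 1.67 in DKD.

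The feedback and target genes of the ERK pathway, on which these ligands act, were below Control more often than above it. Of 19 genes compared, 6 were lower in the libraries labelled TRIM11-KD, 7 in KDM5C-KD and 7 in DKD, and 1, 1 and 0 were higher, beside 2.58%, 3.97% and 4.87% of all genes lower and 3.25%, 5.22% and 5.71% higher. Their median log2 difference from Control was -0.40 in TRIM11-KD, -0.18 in KDM5C-KD and -0.35 in DKD, against -0.01 for all genes. SPRY1, SPRY2, SPRY4 and ETV1 were lower than Control in all 3 knockdowns, and IER3, an immediate early gene, was higher in TRIM11-KD and KDM5C-KD. FOSL1 of this list, called in none, was at 225.5 FPKM in Control and at 236.6 to 349.3 FPKM in the knockdown libraries. Between DKD and TRIM11-KD, the limma rule called ETV4 higher (log2 difference 0.65, SE 0.26, unadjusted p = 0.0458, adjusted p = 0.707) and EGR1 lower. The share of all genes called there was 3.29%. In KDM5C-KD against DKD, DUSP6 and EGR1 were called higher and SPRY1 lower, beside 6.74%. None was called between KDM5C-KD and TRIM11-KD, beside 5.37%. With a KDM5C guide DUSP4 and SPRY2 were called lower, beside 2.13%, and with a TRIM11 guide DUSP6 and EGR1, beside 3.02%. As the 3 knockdowns share the Control library, the counts of this list against Control are not independent. The list was chosen with earlier results of these data known, so its counts beside all genes are a description. The part of the members in them was not tested.

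ETV1, an ERK-dependent ETS transcription factor, was at 11.97 FPKM in Control, 5.8 and 1.95 in TRIM11-KD, 3.07 and 3.53 in KDM5C-KD, and 3.73 and 2.76 in DKD. SPRY1, a Sprouty inhibitor of receptor signaling, was at 12.1 FPKM in Control, 6.34 and 3.26 in TRIM11-KD, 3.31 and 1.6 in KDM5C-KD, and 4.93 and 4.98 in DKD. Both genes were highest in Control. DUSP6, which removes phosphate from ERK itself, was at 87.6 FPKM in Control, 52.8 and 33.7 in TRIM11-KD, 60.05 and 72.02 in KDM5C-KD, and 37.1 and 25.9 in DKD, so the 4 libraries with a TRIM11 guide were the lowest (log2 difference -1.05 with the guide, SE 0.19, unadjusted p = 0.000729, adjusted p = 0.448).

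DUSP4 was at 123.3 FPKM in Control, 92.1 and 49.7 in TRIM11-KD, 59.4 and 47.8 in KDM5C-KD, and 67.5 and 41.3 in DKD, lowest in DKD2. SPRED3, a Sprouty-related inhibitor, was at 2.72 FPKM in Control, 1.57 and 1.78 in TRIM11-KD, 1.23 and 1.09 in KDM5C-KD, and 2.22 and 1.55 in DKD. It too was below Control in all 6 knockdown libraries. EGR1, an immediate early transcription factor, was at 86.6 FPKM in Control, 77.4 and 62.2 in TRIM11-KD, 49.6 and 156.6 in KDM5C-KD, and 21.8 and 27.9 in DKD. EGR1 was lower than Control in DKD, and its KDM5C-KD libraries lay on either side of Control.

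VEGFA is a classical target of the hypoxia response. Of 24 other hypoxia genes compared, none was called in either direction in TRIM11-KD or KDM5C-KD. In DKD, where VEGFA was 0.477 and 0.458 of Control, 2 were higher (CA9 and PDK1) and none was lower. The shares of all genes were 3.25% higher and 2.58% lower in TRIM11-KD, 5.22% and 3.97% in KDM5C-KD, and 5.71% and 4.87% in DKD. Their median log2 difference from Control was -0.02, 0.09 and 0.05 in TRIM11-KD, KDM5C-KD and DKD, against -0.01 for all genes in each. Any part of the hypoxia response in the VEGFA values was not tested. Between DKD and TRIM11-KD, where VEGFA was called lower, 2 of the 24 were lower by the limma rule, beside 3.29% of all genes called in either direction. They were ADM (log2 difference -0.94, SE 0.27, unadjusted p = 0.0141, adjusted p = 0.702) and EPAS1 (log2 difference -0.67, SE 0.28, unadjusted p = 0.0498, adjusted p = 0.707). With a KDM5C guide ADM was lower (log2 difference -0.61, SE 0.25, unadjusted p = 0.043, adjusted p = 0.435), beside 2.13% of all genes called, and none was higher in either fit. Between KDM5C-KD and DKD, EPAS1 was higher in KDM5C-KD and PFKFB3 and PDK1 were lower, beside 6.74% of all genes called. ADM encodes the vasodilator peptide adrenomedullin, EPAS1 the oxygen-sensing factor HIF2A and PFKFB3 an activator of glycolysis. CA9 is a carbonic anhydrase of the cell surface and PDK1 a kinase that restrains pyruvate oxidation.

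**Figure D4:**
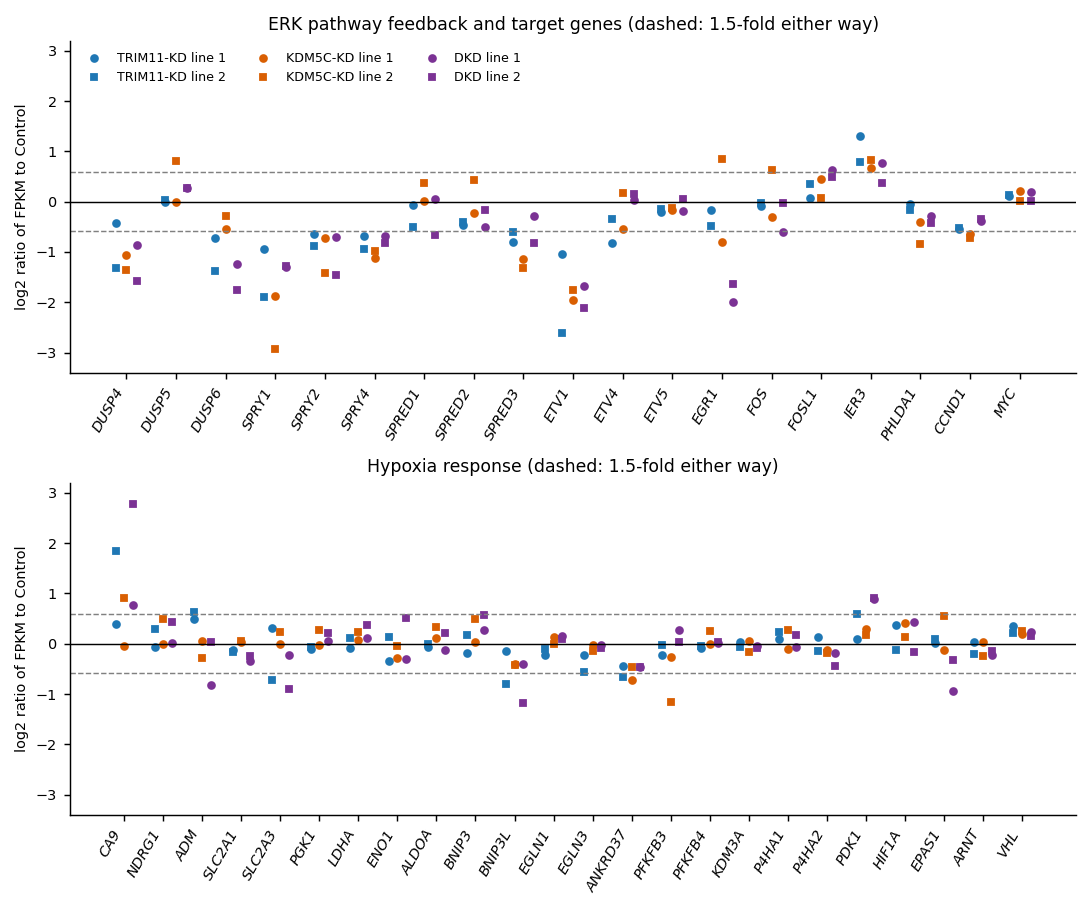
Log2 ratio of FPKM to the Control library (vertical axis) for the compared genes of the ERK feedback and target list (upper panel, 19 genes) and the hypoxia list (lower panel, 24 genes), with circles for line 1, squares for line 2 and dashed lines at 1.5-fold either way. SPRY1, SPRY2, SPRY4 and ETV1 lie below the lower line in all 6 knockdown libraries, and in DKD only CA9 and PDK1 of the hypoxia genes lie past a line in both lines of cells.

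In the tumors the members' mouse orthologs had a different profile. Counted fragments per tumor, recovered from the steps between low FPKM values, came to 8793198 to 11117122. Vegfa was again the highest of the 9, at 9.97 to 22.6 FPKM. Fgf5 was listed at 0 FPKM in all 6 tumors, Ntf3 at 0 in 4 of them and at 2 fragments in each of the other two, and Bdnf at 0 to 19 fragments. Fgf2, whose human counterpart was listed at or near 0 FPKM, was at 2.85 to 4.55 FPKM (211 to 314 fragments), and its antisense neighbor Nudt6 at 7.46 to 9.49 FPKM. In tissue of mixed cells, fewer cells of a type and less RNA per cell cannot be told apart.

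Trim11 mRNA was 37.1 ± 1.84 FPKM in Trim11+/+ and 23.2 ± 0.66 in Trim11+/- tumors (SD, n = 3 each; exact two-sided permutation p = 0.1, the smallest that 3 against 3 allows). None of the 6 orthologs compared was called between the genotypes under the rule of a 1.5-fold ratio and an unadjusted limma p under 0.05, beside 3.61% of all 17328 genes tested. None had an adjusted p under 0.05, beside 0.00577% of all genes, and 1 of the 6, Pdgfa, had an unadjusted p under 0.05, beside 6.94% of all genes. Pdgfa was at 7.1, 4.92 and 5.97 FPKM in Trim11+/+ and 3.55, 4.12 and 4.39 in Trim11+/- tumors. The groups did not overlap, but the share of all genes without overlap was not counted. Its ratio was 0.67, just short of the 1.5-fold limit (log2 difference -0.47, SE 0.15, limma unadjusted p = 0.0182, adjusted p = 0.647), and the exact two-sided permutation p was 0.1. Pdgfa passed both limits when tumor 2 of Trim11+/+ or tumor 2 or 3 of Trim11+/- was left out.

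Fgf1 was at 6.45, 2.36 and 0.948 FPKM in Trim11+/+ and 4.59, 3.93 and 1.81 in Trim11+/- tumors, and the groups overlapped throughout. Vegfa was at 9.97, 12.03 and 16.4 FPKM in Trim11+/+ and 13.7, 22.6 and 11.4 in Trim11+/- tumors, again overlapping. Vegfc was 1.27 ± 0.165 FPKM in Trim11+/+ and 1.44 ± 0.0722 in Trim11+/- (SD, n = 3 each; exact permutation p = 0.2), and Pdgfb was 4.16 ± 0.459 and 3.59 ± 0.502 (SD, n = 3 each; exact permutation p = 0.2). The tumors differed in tissue makeup: the summed FPKM of 4 skeletal muscle markers ranged from 18.1 to 182.3 in Trim11+/+ and from 0.679 to 218.0 in Trim11+/-, that of 5 fibroblast markers from 104.3 to 230.5 and from 91.7 to 171.2, that of 5 endothelial markers from 13.7 to 20.5 and from 11.1 to 18.9, that of 4 macrophage markers from 39.0 to 49.7 and from 28.4 to 49.1, and that of 4 adipocyte markers from 11.97 to 98.5 and from 7.17 to 63.2. The 4 epithelial markers summed to 1213 to 1555 and 1285 to 1647. None of these markers was at 0 in all tumors, and their part in the ortholog values was not tested.

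**Figure D5:**
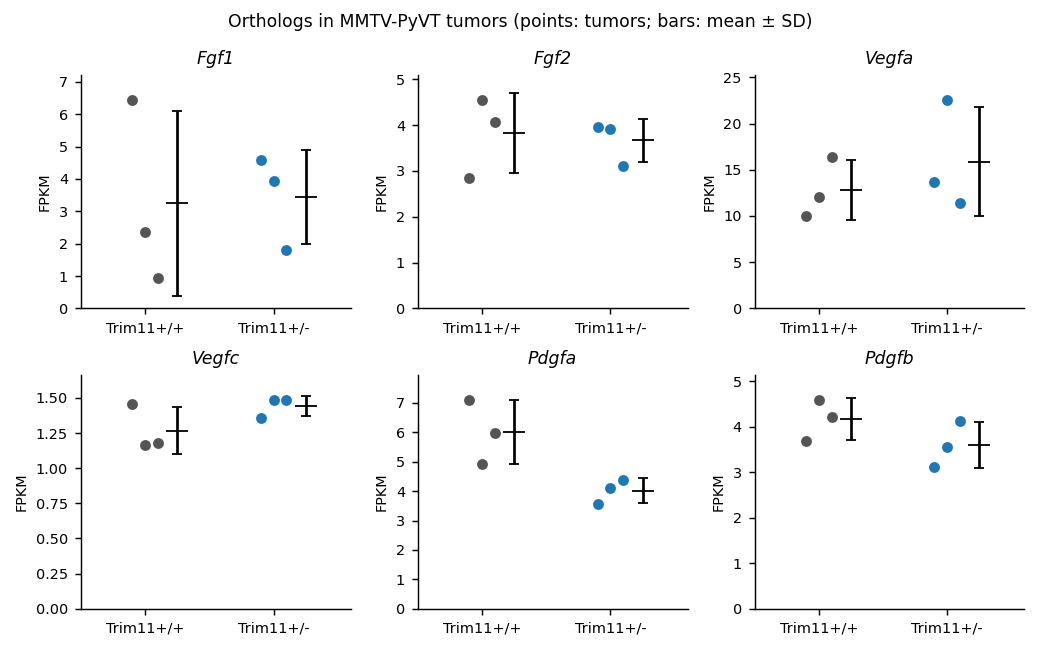
FPKM (vertical axis) of the 6 orthologs compared in MMTV-PyVT tumors, with 1 point per tumor and the mean ± SD of the 3 tumors of each genotype beside them. Pdgfa lies at 3.55 to 4.39 FPKM in the Trim11+/- tumors and at 4.92 to 7.1 FPKM in the Trim11+/+ tumors.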

How the data were processed

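RNA was sequenced from 7 MDA-MB-231 libraries and 6 mouse tumors, as non-directional poly(A) libraries. Per the study's methods, the authors trimmed the reads with Cutadapt, aligned them with HISAT2 to hg19 or mm10 and deposited FPKM values from Cufflinks. The submitters' processing notes also name Bowtie 0.12.2 and the build mm8, with no role given. The human values hold no whole-read step, so their depth is unknown. The tumor values do, and gave 8793198 to 11117122 counted fragments, with 98.8% of values under 50 fragments whole within 0.01. Intervals from these counts would cover counting error only.

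Of 26006 human rows, 25 date-like symbols were left out, and of rows that share a symbol the one with the highest mean was kept, which left 24523. Genes with a mean of at least 0.5 FPKM (12636 human, 17328 mouse) were compared as log2(FPKM + 1), a scale that understates changes of low genes, with limma 3.58.1 in R 4.3.3 and Benjamini-Hochberg adjustment. A gene was called when its mean FPKM differed at least 1.5-fold and had an unadjusted p under 0.05, the study's limits. Control has 1 library, so against it both lines had to pass the fold, with no test. The scripts were tested on simulated data. Single tumor genes were compared by exact permutation (scipy 1.17.1).

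Named were the members, their orthologs, the targeted and overlapping genes, list genes at a mean of at least 1 FPKM with both lines 2-fold from Control, and the genes most like each member. Other receptors, ligands and list genes were named after their values were seen. The members and lists were chosen with earlier results of these data known, so their counts beside all genes are descriptions. Nothing says that the libraries of a group came from separate cultures beyond their guides, so p-values measure the spread between these libraries.

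Alternatives were another pseudocount, filter, fold, scaling, the mean of the lines, a model without trend, a replicate block and leaving out each library. Leaving out the libraries labelled TRIM11-KD1 and DKD1 together, and the alternatives of the PDGFB interaction, were added after seeing the data.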

Additional observations from a re-analysis of the deposited data

Results flagged for a closer look

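The fitted effect of a KDM5C guide on PDGFB differed between cells with and without a TRIM11 guide at an unadjusted p under 0.05. The interaction was 1.65 on the log2(FPKM + 1) scale (SE 0.50, limma unadjusted p = 0.0156, adjusted p = 0.879). Without a TRIM11 guide, the KDM5C-KD libraries (0.35 and 0.2 FPKM) were below Control (0.926 FPKM). With it, the DKD libraries (1.55 and 3.2 FPKM) were above the libraries labelled TRIM11-KD (0.305 and 0.925 FPKM). The cells without either guide are the single Control library, TRIM11 mRNA was not lower in TRIM11-KD1 and DKD1, and the number of reads behind these low values is not known. The interaction does not pass the adjustment over all genes.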

How the results depend on the processing

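There were 168 alternatives to a count of members or to the PDGFB interaction. Of these, 133 left the count within 1.5 times or the interaction at an unadjusted limma p under 0.05. The alternatives of the interaction, added after seeing the data, all held and so raise that number. Of 735 alternatives for single genes none reversed a called direction, 31 lost a call and 19 gained it. The causes were not tested. With a fold of at least 2, the counts became 0 lower in TRIM11-KD, 0 higher and 1 lower in KDM5C-KD, 0 higher in DKD, 1 between KDM5C-KD and DKD, 1 between DKD and TRIM11-KD, and 0 for either guide. With a pseudocount of 1 before the ratio to Control, KDM5C-KD had 1 member higher (FGF1) and 1 lower (FGF5), and DKD had 0 higher. With no filter, 1 was higher in TRIM11-KD (FGF2), 2 in DKD (FGF2 and PDGFB), where FGF2 passed because Control is at 0 and any value above it passes, and 1 differed between KDM5C-KD and DKD. With a mean of at least 1 FPKM, KDM5C-KD had 1 member higher. That filter and a pseudocount of 0.1 each left 1 call in the comparison of KDM5C-KD with TRIM11-KD. By the mean of both lines, 3 were lower in TRIM11-KD (FGF5, NTF3 and PDGFB).

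Leaving out each library in turn gave 2 to 3 members lower in TRIM11-KD, 2 to 4 lower in KDM5C-KD (4 without KDM5C-KD1: FGF5, VEGFA, PDGFA and PDGFB), 1 to 2 higher in DKD (2 without DKD2: FGF1 and PDGFB), 1 to 4 between KDM5C-KD and DKD, 1 to 2 between KDM5C-KD and TRIM11-KD, 0 to 3 between DKD and TRIM11-KD (0 without TRIM11-KD1), 2 to 3 for the KDM5C guide (FGF1 lost without Control, TRIM11-KD2, KDM5C-KD1 or DKD1) and 1 to 2 for the TRIM11 guide. Against Control a single remaining line then has to pass, and the shares of all genes rose too, to 4.34% to 9.45% lower in TRIM11-KD, 6.14% to 13% lower in KDM5C-KD and 9.5% to 11.3% higher in DKD. An unchanged count can hide a change of members, as between KDM5C-KD and DKD, where FGF5 took the place of FGF1 without TRIM11-KD1, TRIM11-KD2 or KDM5C-KD1. In the tumors it gave 0 to 1, the 1 being Pdgfa without Trim11+/+ 2, Trim11+/- 2 or Trim11+/- 3. Without both libraries labelled TRIM11-KD1 and DKD1, KDM5C-KD and DKD had 4 members called (FGF1, NTF3, VEGFC and PDGFB), DKD and TRIM11-KD had 1 (PDGFB), and KDM5C-KD and TRIM11-KD kept a count of 2, with NTF3 lost and VEGFC gained. The PDGFB interaction stayed past p of 0.05 in every alternative run, at 1.29 to 2.00 without each knockdown library and 3.34 with a pseudocount of 0.1. It could not be fitted without Control.

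With the replicate number as a block, 2, 2 and 2 members and 0 orthologs were called, beside 8.71%, 7.29%, 4.56% and 3.31% of all genes. Same-numbered libraries correlated at 0.371 (TRIM11-KD and DKD), 0.273 (KDM5C-KD and DKD) and 0.088 (TRIM11-KD and KDM5C-KD) in their deviations, and tumors at -0.330, 0.0385 and -0.130, so no pairing was taken in the results given. For TRIM11-KD and DKD the number also marks a shared TRIM11 guide, and there the block called PDGFB and VEGFA, as without it. The unknown human depth limits what PDGFB, NTF3 and FGF2 can show.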
